A study of Drosophila melanogaster with 6 samples.

Results

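The glutathione transferase family was examined in RNA sequencing of Drosophila melanogaster larval brains at the third instar. Its members are the genes of the deposited table whose symbol starts with GstD, GstE, GstO, GstS, GstT or GstZ, which gave 35 of 17737 genes. The family was selected on measured values, because GstD1 and GstE1 had lower counts in DNMT3L than in control libraries. For these 2 genes the difference between the groups is therefore given as a description, with no test. The other members entered by name, but they belong to a family put forward on this same comparison, so no count over the members is read as evidence of a family effect.

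The DNMT3L group (3 libraries) came from the driver elavC155-Gal4 crossed to a w/w stock that carried P(UAS-DNMT3L,w+) over the balancer Cyo and had TM2 over TM6B, and the control group (3 libraries) carried elavC155-Gal4 alone. The driver, an insertion at the elav gene on the X chromosome, was thus shared by both groups. By the labels, the w/w stock and its balancers entered the DNMT3L group together with the transgene, so their parts cannot be told apart. It places the yeast activator Gal4 in neurons, and DNMT3L is a mammalian cofactor of DNA methyltransferases without catalytic activity of its own. The labels do not say which larvae of the cross carried the transgene and which the balancer chromosomes, nor whether replicates were separate pools of animals. Each p-value measures only the spread between these libraries, which may be technical. Total counts ran from 17928420 to 19251845 per library. Levels are read counts scaled to library depth by the trimmed mean of M-values (TMM CPM), listed for libraries 1, 2 and 3 of a group in that order. Levels between genes are compared as FPKM, which are scaled to gene length and to the total count, without TMM. The TMM factors were 1.05 to 1.08 in DNMT3L libraries and 0.855 to 1.01 in control libraries. FPKM therefore place DNMT3L higher against control than TMM CPM do. Fold changes are log2, DNMT3L over control, with a standard error (SE).

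Glutathione transferases join the tripeptide glutathione to reactive and fat-soluble compounds, which makes these easier to export from the cell. Insects have large Delta and Epsilon classes that act on plant toxins, insecticides and products of lipid peroxidation, while the Omega, Sigma, Theta and Zeta classes are shared with other animals. Several of the genes are induced through the oxidative stress factor CncC, which is held back by Keap1, and a GstD1 reporter is widely used to read that pathway in flies.

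The 35 members comprised 11 Delta, 14 Epsilon, 3 Omega, 1 Sigma, 4 Theta and 2 Zeta genes. GstD8 had no read in any library, which at a floor of 3 counts allows up to 0.152 to 0.182 CPM, counting error only. GstD5, GstD6, GstD11, GstE4 and GstE10 had between 9 and 56 reads over all libraries and, with GstD8, did not pass the filter on low counts, which left 29 members tested. All 35 had the same BDGP6 coordinates in the Ensembl annotation as in the deposited table. The annotated proteins ran from 199 residues for GstD3 to 268 residues for GstT3.

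As a sum that includes GstD1 and GstE1, on which the family was chosen, its transcripts were less abundant in DNMT3L libraries. The summed level was 1812, 2365 and 2125 CPM in DNMT3L libraries, against 4158, 2627 and 3073 CPM in control libraries, and the groups did not overlap. GstD1 made up 25.2 ± 5.78% of that sum in DNMT3L brains and 38.7 ± 3.94% in control brains (SD, n = 3 each). GstZ2, an enzyme of tyrosine breakdown, went the other way and made up 23.4 ± 9.17% of the sum in DNMT3L brains and 8.72 ± 4.82% in control brains. Without GstD1 the family summed to 1461, 1634 and 1586 CPM in DNMT3L libraries and 2359, 1657 and 1965 CPM in control libraries. Without GstD1 and GstE1 it summed to 1445, 1612 and 1566 CPM in DNMT3L libraries and 2277, 1621 and 1914 CPM in control libraries. DNMT3L 2 and control 2 then lay close together. The spread inside the control group was wide in each of these sums, with control 1 highest.

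No member passed edgeR's quasi-likelihood test after Benjamini-Hochberg adjustment over the 9495 genes tested, where 0% of all genes passed. The counts that follow leave out GstD1 and GstE1, on which the family was chosen, so that 27 members remain. Their edgeR adjusted p lay between 0.290 and 0.996. At an unadjusted edgeR p under 0.05, 11 of the 27 were lower, where 8.79% of all genes were, and 1 was higher, where 6.23% of all genes were. DESeq2 called 2 of them, GstD4 and GstS1, both lower, where it called 1.96% of all genes lower and 1.12% higher. Limma on log2(FPKM + 1) called no member. Of the 27, 24 had a negative log2 fold change, where 52.3% of all genes tested did, and their median was −0.96, against −0.03 over all genes tested. In 8 of them every DNMT3L library lay below every control library, where 14.1% of all genes did so. In 1, GstZ2, every DNMT3L library lay above, where 14.0% of all genes did so.

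Per length, GstD1 was followed by mean in DNMT3L brains by GstZ2 and GstS1, whose spreads overlapped, and in control brains by GstS1 and GstE12. GstS1 was at 185 ± 12.6 FPKM in DNMT3L brains and 244 ± 18.9 FPKM in control brains (SD, n = 3 each, as for all FPKM values here). GstE12 was at 125 ± 37.5 FPKM in DNMT3L brains and 154 ± 46.6 FPKM in control brains. GstO3 (77.8 ± 38.2 FPKM in DNMT3L brains, 132 ± 39.2 FPKM in control brains), GstD3 (68.6 ± 28.5 in DNMT3L, 124 ± 38.7 in control) and GstZ2 lay within their spread of one another in control brains. A middle tier held GstO2 (68.6 ± 13.5 FPKM in DNMT3L, 79.5 ± 14.2 in control), GstE11 (46.1 ± 12.6 in DNMT3L, 78.4 ± 25.4 in control), GstT1 (49.9 ± 9.48 in DNMT3L, 75.5 ± 21.5 in control), GstE13 (51.4 ± 12.3 in DNMT3L, 73.3 ± 22.5 in control) and GstE1 (24.9 ± 3.88 in DNMT3L, 62.5 ± 20.3 in control). In control brains these 5 lay within their spread of one another, and in DNMT3L brains GstE1 lay lowest of them. The other tested genes averaged less, from GstE14 at 20.7 ± 9.80 FPKM in DNMT3L brains and 35.0 ± 16.7 FPKM in control brains down to GstD4 at 0.230 ± 0.139 FPKM in DNMT3L brains and 1.36 ± 0.320 FPKM in control brains.

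Among these lesser genes, the order followed no single class. GstE6 was at 12.3 ± 6.35 FPKM in DNMT3L brains and 27.6 ± 13.2 FPKM in control brains, GstT4 at 18.8 ± 6.45 in DNMT3L and 28.7 ± 6.18 in control, and GstT2 at 16.1 ± 2.33 in DNMT3L and 21.4 ± 5.15 in control. GstO1 was at 13.0 ± 2.58 FPKM in DNMT3L brains and 17.2 ± 4.07 FPKM in control brains, GstZ1 at 11.8 ± 3.25 in DNMT3L and 16.6 ± 5.71 in control, and GstE2 at 12.5 ± 2.93 in DNMT3L and 13.1 ± 4.80 in control. GstT3 (13.6 ± 1.41 FPKM in DNMT3L, 12.1 ± 0.718 in control) and GstD9 (14.7 ± 3.90 in DNMT3L, 10.2 ± 2.47 in control) had the higher mean FPKM in DNMT3L brains. In TMM CPM, GstT3 was level, at a mean of 17.605 in DNMT3L brains and 17.583 in control brains. The remaining genes were those of the clusters with few reads. GstE8 was at 3.77 ± 1.03 FPKM in DNMT3L brains and 7.85 ± 2.92 FPKM in control brains, GstE3 at 3.95 ± 1.32 in DNMT3L and 7.64 ± 0.796 in control, and GstD2 at 2.36 ± 2.02 in DNMT3L and 5.99 ± 2.78 in control. GstD10 was at 1.25 ± 1.41 FPKM in DNMT3L brains and 4.47 ± 0.939 FPKM in control brains, GstE5 at 0.980 ± 0.242 in DNMT3L and 3.89 ± 2.59 in control, and GstE7 at 1.66 ± 0.844 in DNMT3L and 3.17 ± 1.26 in control. GstE9 was at 1.17 ± 0.885 FPKM in DNMT3L brains and 2.73 ± 1.42 FPKM in control brains, and GstD7 at 1.00 ± 0.995 in DNMT3L and 2.40 ± 1.53 in control.

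**Figure D1:**
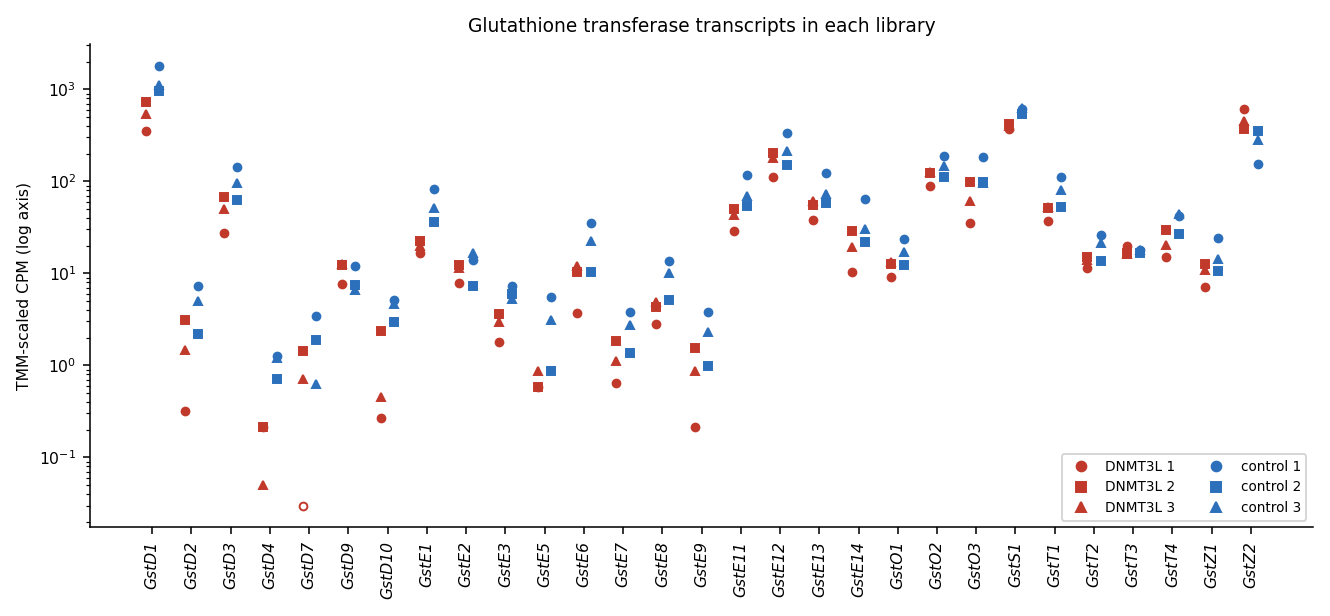
TMM-scaled CPM (log axis) of the 29 tested genes in each library, DNMT3L libraries left (red) and control libraries right (blue) of each tick, with marker shapes for libraries 1 to 3. The open circle marks no read for GstD7 in DNMT3L 1, and GstZ2 is the gene with all DNMT3L points above the control points.

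Delta genes lie together on chromosome 3R, from 12364776 to 12385624. The 11 genes span 20849 bases, with GstD10, GstD9 and GstD1 on the minus strand and the others on the plus strand. GstD1, which in flies detoxifies DDT and other electrophiles, was the most abundant member per length in both groups, at 679 ± 239 FPKM in DNMT3L brains and 1417 ± 355 FPKM in control brains (SD, n = 3 each). By mean FPKM it ranked 125 among all genes in DNMT3L brains and 104 in control brains. Its scaled counts were 351, 731 and 539 CPM in DNMT3L libraries, against 1799, 970 and 1107 CPM in control libraries, a log2 fold change of −1.26 ± 0.35 (SE). The groups did not overlap, but the lowest control library was closer to the highest DNMT3L library than to control 1.

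GstD3 was next among Delta genes, at 27.5, 67.5 and 49.8 CPM in DNMT3L libraries and 142, 62.9 and 96.5 CPM in control libraries. Its log2 fold change was −1.06 ± 0.41, and the groups overlapped through DNMT3L 2 and control 2. GstD9, which lies between GstD10 and GstD1, was the exception in this class, at 7.67, 12.2 and 12.7 CPM in DNMT3L libraries and 11.9, 7.43 and 6.66 CPM in control libraries. Its log2 fold change was 0.33 ± 0.32 (SE, edgeR adjusted p = 0.526), so the 3 minus-strand genes of the cluster did not share one direction. GstD10, the outer gene of that trio, was at 0.266, 2.38 and 0.455 CPM in DNMT3L libraries and 5.11, 2.93 and 4.61 CPM in control libraries, a log2 fold change of −2.02 ± 0.79 without overlap.

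GstD4 had the lowest log2 fold change of the family, −2.70 ± 0.58 (SE, edgeR adjusted p = 0.290). It was at 0.213, 0.212 and 0.0506 CPM in DNMT3L libraries and 1.28, 0.705 and 1.20 CPM in control libraries, without overlap. These levels rested on few reads, 4, 4 and 1 in DNMT3L libraries and 21, 13 and 21 in control libraries. GstD2, which acts on isothiocyanates of plants, averaged 1.64 ± 1.41 CPM in DNMT3L brains and 4.81 ± 2.57 CPM in control brains (SD, n = 3 each), with overlapping groups. GstD7 averaged 0.712 ± 0.714 CPM in DNMT3L brains and 1.98 ± 1.39 CPM in control brains and overlapped too. Their log2 fold changes were −1.55 ± 0.79 for GstD2 and −1.46 ± 1.09 for GstD7. Of 7 Delta genes tested, 6 were negative, GstD1 included, with a class median of −1.46.

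The Epsilon class holds a cluster of 10 genes on chromosome 2R, from 18396638 to 18409835, and 4 genes elsewhere on that arm. All 12 tested Epsilon genes, GstE1 included, had negative log2 fold changes, with a class median of −1.13. GstE1 was at 16.4, 22.4 and 19.8 CPM in DNMT3L libraries, against 81.8, 35.9 and 51.7 CPM in control libraries. That is a log2 fold change of −1.53 ± 0.32 (SE). The DNMT3L libraries lay close together and the control libraries were spread more widely, with control 1 highest.

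GstE2, the neighbour of GstE1, differed little, at 7.77, 12.2 and 11.5 CPM in DNMT3L libraries and 13.9, 7.21 and 16.5 CPM in control libraries. Its log2 fold change of −0.25 ± 0.36 (SE) was within its error. The next gene, GstE3, was at 1.81, 3.65 and 2.98 CPM in DNMT3L libraries and 7.23, 5.97 and 5.29 CPM in control libraries, a log2 fold change of −1.13 ± 0.33 without overlap (edgeR adjusted p = 0.329). GstE5 was at 0.586, 0.582 and 0.860 CPM in DNMT3L libraries and 5.47, 0.868 and 3.13 CPM in control libraries. Its log2 fold change was −2.21 ± 0.67, and the gap rested on a margin between DNMT3L 3 and control 2 that is far below the spread of the control libraries.

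GstE6 was at 3.73, 10.3 and 12.1 CPM in DNMT3L libraries and 35.4, 10.4 and 22.4 CPM in control libraries. GstE8 was at 2.82, 4.29 and 4.86 CPM in DNMT3L libraries and 13.5, 5.10 and 10.1 CPM in control libraries. The log2 fold changes were −1.38 ± 0.57 for GstE6 and −1.26 ± 0.42 for GstE8. In both genes control 2 stood near the DNMT3L libraries, and the groups of GstE6 overlapped. GstE7 averaged 1.20 ± 0.612 CPM in DNMT3L brains and 2.64 ± 1.24 CPM in control brains, and GstE9 0.869 ± 0.661 CPM in DNMT3L brains and 2.36 ± 1.40 CPM in control brains (SD, n = 3 each). Both overlapped between the groups, with log2 fold changes of −1.13 ± 0.54 for GstE7 and −1.43 ± 0.76 for GstE9. Exons of GstE9 and imd overlap by 40 bases on opposite strands, and those of GstE1 and GstE10 by 20 bases. Whether reads were counted by strand was not stated, so reads there cannot be assigned. Members of a cluster are close paralogs that could share reads, and their single values are uncertain to that extent.

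Of the Epsilon genes outside the cluster, GstE12 was at 110, 205 and 178 CPM in DNMT3L libraries and 332, 152 and 216 CPM in control libraries, with a log2 fold change of −0.50 ± 0.35 (SE). GstE11 was at 28.9, 50.6 and 43.6 CPM in DNMT3L libraries and 118, 53.5 and 69.7 CPM in control libraries, a log2 fold change of −0.97 ± 0.35. The groups of GstE11 did not overlap, and those of GstE12 did. GstE13 was at 38.3, 54.9 and 61.2 CPM in DNMT3L libraries and 122, 57.6 and 73.4 CPM in control libraries. GstE14, known as noppera-bo and needed for ecdysone synthesis in the prothoracic gland of the larva, was at 10.4, 29.1 and 19.5 CPM in DNMT3L libraries and 63.6, 21.9 and 30.6 CPM in control libraries. The log2 fold changes were −0.71 ± 0.32 for GstE13 and −0.98 ± 0.51 for GstE14. Control 1 was the highest library in each of the 4 genes.

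**Figure D2:**
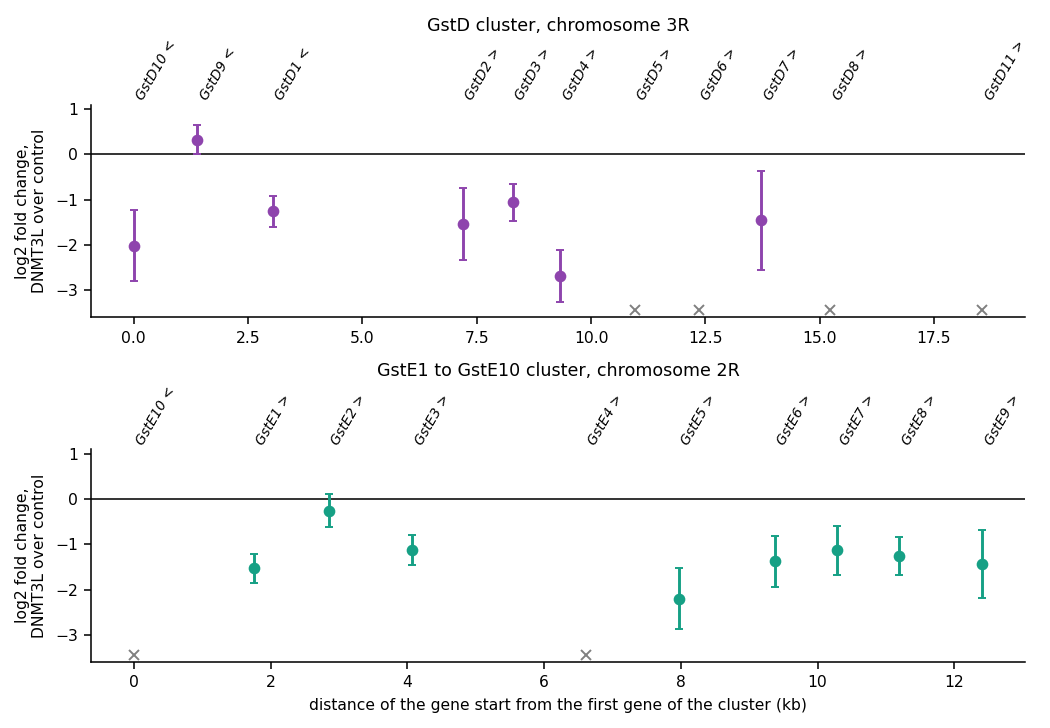
Log2 fold change, DNMT3L over control, with its standard error, against the distance of each gene's start from the first gene of the Delta cluster (top) and of the Epsilon cluster (bottom). Grey crosses mark genes that were not tested, and GstD9 at 0.33 is the point above zero in the Delta cluster.

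Genes within 10 kb of the clusters did not share one direction. Beside the Delta cluster, MBD-R2, a gene of a nonspecific lethal complex subunit, had a log2 fold change of 0.19 ± 0.16 (SE), CG4115 one of −0.66 ± 0.42 and CG34402 one of 0.51 ± 0.21. Beside the Epsilon cluster, the immune adaptor gene imd had −0.40 ± 0.18, Dp1 0.12 ± 0.30 and Idgf5 −0.76 ± 0.63. None of these 6 passed edgeR (adjusted p from 0.332 to 0.801), where 0% of all genes tested passed. The groups did not overlap for imd, with DNMT3L lower, where 14.1% of all genes did so. They did not overlap for CG34402, with DNMT3L higher, where 14.0% did so. The other neighbours overlapped.

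The Omega genes, whose products include thiol transferases and dehydroascorbate reductases, are neighbours on chromosome 3L. GstO2 was at 88.6, 122 and 127 CPM in DNMT3L libraries and 190, 111 and 146 CPM in control libraries. GstO3 was at 34.9, 98.4 and 60.8 CPM in DNMT3L libraries and 182, 97.5 and 97.1 CPM in control libraries. GstO1 was at 9.21, 12.6 and 13.4 CPM in DNMT3L libraries and 23.7, 12.3 and 17.2 CPM in control libraries. The log2 fold changes were −0.40 ± 0.24 for GstO2, −0.96 ± 0.43 for GstO3 and −0.60 ± 0.29 for GstO1, and all 3 overlapped between the groups.

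GstS1, the Sigma gene, encodes an enzyme that conjugates the lipid peroxidation product 4-hydroxynonenal and is abundant in muscle. It was at 373, 424 and 396 CPM in DNMT3L libraries, against 612, 533 and 630 CPM in control libraries. The difference was smaller than in most Delta and Epsilon genes but the libraries of each group lay close together. Its log2 fold change was −0.57 ± 0.14 (SE, edgeR adjusted p = 0.299; DESeq2 adjusted p = 0.008). It ranged from −0.65 to −0.53 when each library was left out in turn and was −0.50 without both libraries numbered 1.

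Theta genes were of moderate abundance. GstT1 was at 37.2, 51.3 and 52.4 CPM in DNMT3L libraries and 112, 52.6 and 79.5 CPM in control libraries, without overlap by a margin smaller than the spread of either group. Its neighbour GstT2, whose exons share 25.1% of their bases with CG12926 on the opposite strand, was at 11.4, 15.1 and 13.9 CPM in DNMT3L libraries and 26.3, 13.6 and 21.5 CPM in control libraries. The log2 fold changes were −0.80 ± 0.30 for GstT1 and −0.60 ± 0.28 for GstT2. Reads of GstT2 and CG12926 cannot be told apart there without strand. GstT4, on the X chromosome, was at 15.1, 29.7 and 20.1 CPM in DNMT3L libraries and 41.9, 26.7 and 43.8 CPM in control libraries, a log2 fold change of −0.79 ± 0.31 with overlap. GstT3, also on the X chromosome, was level, at 19.9, 16.7 and 16.2 CPM in DNMT3L libraries and 18.055, 16.707 and 17.986 CPM in control libraries, with a log2 fold change of 0.0018 ± 0.17 (SE).

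The Zeta genes GstZ1 and GstZ2 are adjacent on the minus strand of chromosome 3R and encode maleylacetoacetate isomerases, which act in tyrosine breakdown. GstZ2 was at 606, 367 and 453 CPM in DNMT3L libraries, against 156, 351 and 279 CPM in control libraries. That is a log2 fold change of 0.86 ± 0.33 (SE, edgeR adjusted p = 0.332). The groups did not overlap, but DNMT3L 2 exceeded control 2 by little. GstZ1 was at 7.13, 12.5 and 10.8 CPM in DNMT3L libraries and 24.5, 10.7 and 14.2 CPM in control libraries, a log2 fold change of −0.70 ± 0.37, so the neighbours lay on opposite sides of zero. Per length, GstZ2 was by its mean second in the family in DNMT3L brains at 216 ± 53.8 FPKM and sixth in control brains at 108 ± 48.3 FPKM (SD, n = 3 each). Its spread in DNMT3L brains overlapped that of GstS1, and in DNMT3L 2 it was below GstS1, at 166 against 197 FPKM.

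**Figure D3:**
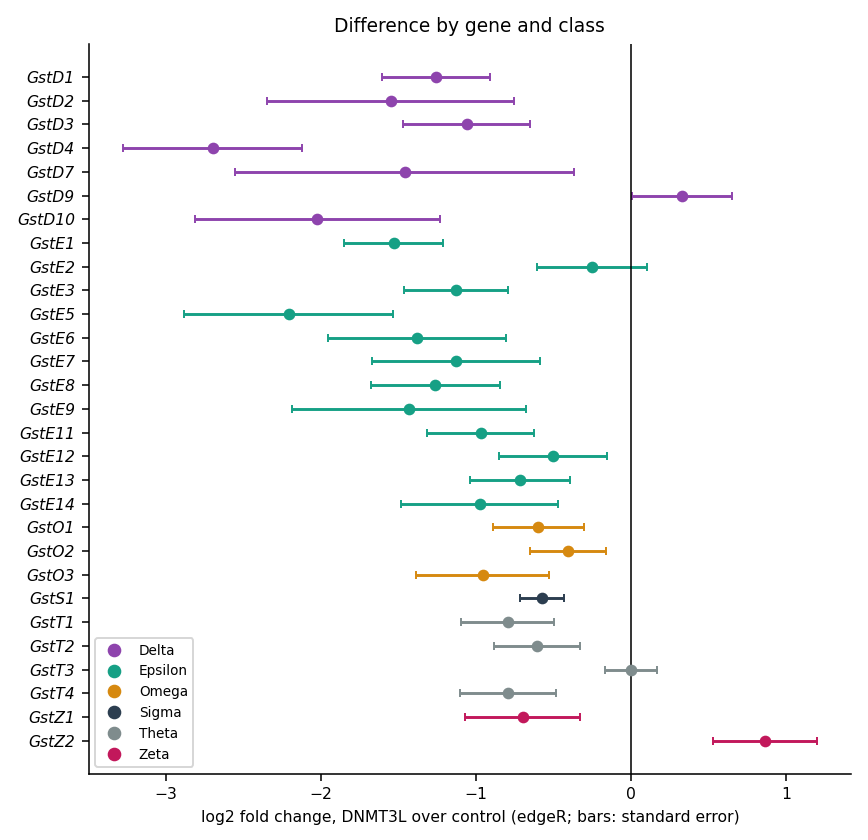
Log2 fold change, DNMT3L over control, with its standard error for the 29 tested genes, coloured by class. All Epsilon, Omega and Sigma points lie left of zero, GstT3 lies at zero, and GstD9 and GstZ2 lie right of it.

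Most of the family shared its highest library, and most shared its lowest. Control 1 was the highest of the 6 libraries for 23 of 29 members (79.3%), against 38.7% of all genes tested. DNMT3L 1 was the lowest for 23 of 29 (79.3%), against 34.0% of all genes tested. Without GstD1 and GstE1 each count was 21 of 27. The median deviation of the members from their mean over the libraries, on log2(CPM + 0.5), was −0.85, −0.06 and −0.33 in DNMT3L libraries and 0.95, −0.15 and 0.39 in control libraries. DNMT3L 2 and control 2 thus stood in the reverse order of the groups. Without both libraries numbered 1, 25 of 30 members tested were negative and their median was −0.37, against −0.97 with all libraries. GstD1 was then at −0.71 and GstE1 at −1.05, while GstD4 was at −2.81 and GstD9 at 0.82.

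Single libraries moved many of the values by over 1.5 times. Leaving out control 1 did so for 14 of 28 members, GstT3 near zero not counted. GstE12 was then at −0.16, GstE13 at −0.35, GstE14 at −0.42 and GstE11 at −0.59, GstZ1 at −0.30, and the Omega genes at −0.33 for GstO1, −0.20 for GstO2 and −0.59 for GstO3. GstT1 was at −0.49, GstT2 at −0.38, GstE6 at −0.91, GstE9 at −0.93 and GstD7 at −0.82, while GstD9 was at 0.62. Without DNMT3L 1, GstE12 was at −0.30, GstD7 at −0.90, GstE2 at −0.09 and GstD9 at 0.51. Without DNMT3L 2, the weakly expressed GstD2, GstD7 and GstD10 were at −2.41, −2.44 and −3.51. GstE2 was at −0.54 without control 2 and −0.0037 without control 3, and GstD9 at 0.17 without control 3 and 0.20 without DNMT3L 3.

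**Figure D4:**
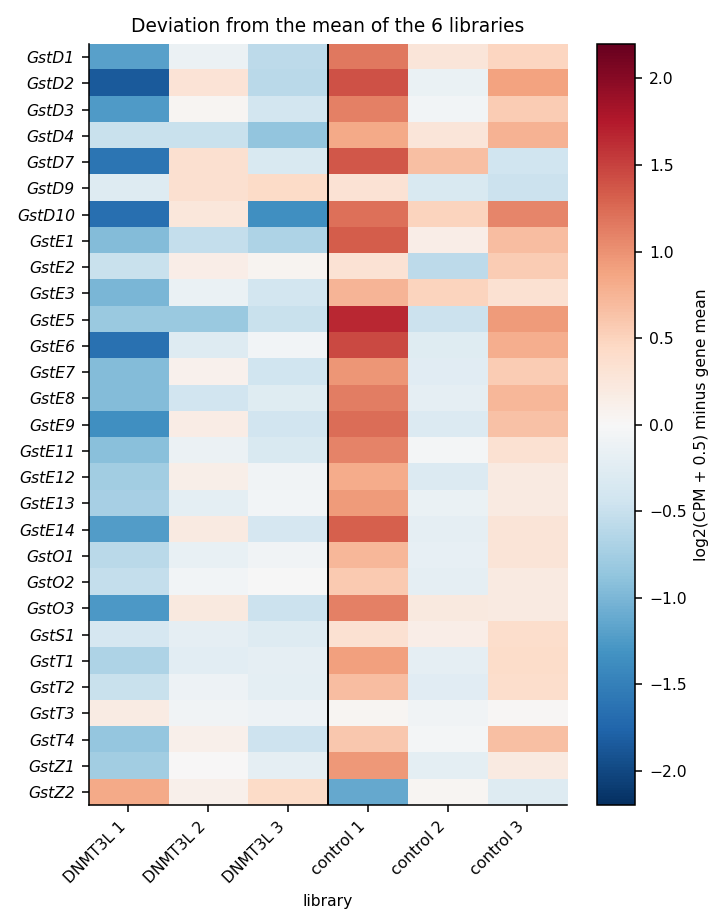
Deviation of log2(CPM + 0.5) from the gene's mean over the 6 libraries (colour) for the 29 tested genes (rows), DNMT3L libraries left and control libraries right of the line. DNMT3L 1 is lowest and control 1 highest for 23 genes each, and GstZ2 shows the reverse.

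Exonic size moved with the fold changes. The tested members had a median exonic size of 887 bases, against 2170 bases over all genes tested. Under 1000 bases, 19 of 20 members, GstD1 and GstE1 among them, were negative (95%) with a median of −1.13, against 83.0% of 1392 genes of that size with a median of −0.41. At 1000 bases or more, 7 of 9 members were negative with a median of −0.57, against 47.0% of 8103 genes with a median of 0.04. GstZ2, the member with the longest exonic sequence at 2325 bases, is also the one with the highest log2 fold change, and its coding sequence makes up 29.4% of that length. GstS1, at 2275 bases and 33.1% coding, was nonetheless lower. Pearson's r of log2 exonic size and log2 fold change was 0.62 across the 29 members and 0.45 across all 9495 genes, as a description, since genes share the libraries. With each library's trend of deviation on exonic size removed, 25 of 29 members were negative with a median of −0.58. On that scale GstD1 was at −0.87, GstE1 at −1.09, GstS1 at −0.53, GstT3 at 0.28 and GstZ2 at 0.90. The part of size in the differences was not tested beyond this.

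**Figure D5:**
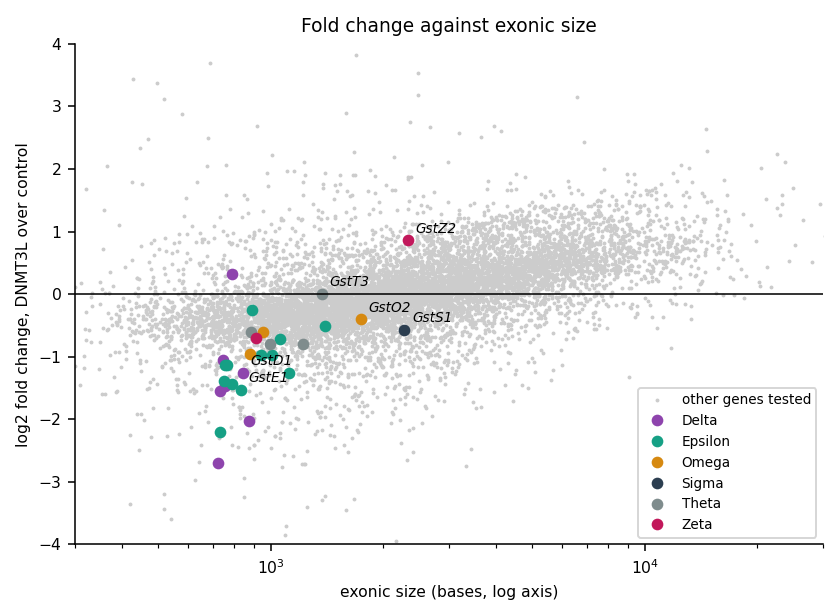
Log2 fold change, DNMT3L over control, against exonic size (log axis) for the 29 tested members (coloured by class) over the 9466 other genes tested (grey), of which 17 lie outside the plotted fold changes and 31 outside the plotted sizes. Short genes lie mostly below zero, and GstZ2 and GstS1, of similar size, lie on opposite sides.

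Members with a single exon lay only in the clusters, though not every clustered gene has this structure. Of the 21 genes in the Delta and Epsilon clusters, 16 have 1 exon in every annotated transcript, and no member outside the clusters does. In 15 of the 35 members the coding sequence fills more than 80% of the exonic size.

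None of the genes related to the family by sequence passed edgeR, where 0% of all genes passed. Whether they differed from the family was not tested. Mgstl, the microsomal glutathione transferase, averaged 99.6 ± 20.8 CPM in DNMT3L brains and 128 ± 42.0 CPM in control brains, with overlapping groups (SD, n = 3 each, as for the pairs that follow). The chromatin-associated gene gfzf, which holds a transferase domain, averaged 98.7 ± 10.3 CPM in DNMT3L brains and 90.9 ± 18.5 CPM in control brains. The elongation factor gene eEF1gamma, with a domain of the same fold, averaged 2037 ± 180 CPM in DNMT3L brains and 2503 ± 358 CPM in control brains. The chloride channel gene Clic averaged 111 ± 12.1 CPM in DNMT3L brains and 130 ± 17.1 CPM in control brains, and Gdap1 0.701 ± 0.277 CPM in DNMT3L brains and 0.411 ± 0.211 CPM in control brains. The eye pigment gene se, an Omega transferase outside the name rule, was below 1 CPM on average in both groups and was not tested. Of the 5 tested, 3 were negative with a median of −0.23, where 52.3% of all genes tested were negative. In 1, eEF1gamma, every DNMT3L library lay below every control library, where 14.1% of all genes did so. The other 4 overlapped between the groups.

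For glutathione synthesis and recycling, 9 of 12 tested genes were negative, with a median of −0.27, where 52.3% of all genes were negative. None of the 12 was called by edgeR, where it called 0% of all genes. The most abundant of the list were Trxr-1, the reductase that in flies also keeps glutathione reduced through thioredoxin, at 434 ± 53.7 CPM in DNMT3L brains and 511 ± 51.9 CPM in control brains, and the peroxidase gene PHGPx, at 209.8 ± 42.7 CPM in DNMT3L brains and 296.5 ± 96.5 CPM in control brains. Both overlapped between the groups. The lowest p-values belonged to the exporter gene Mrp4, at 32.4 ± 3.94 CPM in DNMT3L brains and 18.7 ± 4.97 CPM in control brains, to Ggt-1, whose product breaks glutathione down, at 5.36 ± 2.11 CPM in DNMT3L brains and 9.63 ± 2.25 CPM in control brains, and to the glutaredoxin gene Grx1, at 37.0 ± 6.001 CPM in DNMT3L brains and 49.8 ± 8.66 CPM in control brains. Of the 12 tested genes of this list, 1, Mrp4, was higher without overlap, where 14.0% of all genes were. Ggt-1 was lower without overlap, where 14.1% of all genes were, and the other 10 overlapped. The regulators of the antioxidant response did not share one direction. cnc averaged 84.8 ± 34.2 CPM in DNMT3L brains and 61.5 ± 30.3 CPM in control brains, Keap1 18.02 ± 3.23 CPM in DNMT3L brains and 15.6 ± 2.04 CPM in control brains, and maf-S 68.6 ± 3.36 CPM in DNMT3L brains and 88.3 ± 24.7 CPM in control brains. All 3 overlapped between the groups.

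Other detoxifying families held no gene called by edgeR, where it called 0% of all genes. All 9 tested genes of peroxide and superoxide enzymes were negative with a median of −0.56, where 52.3% of all genes were negative. In 5 of them the groups did not overlap, with DNMT3L lower, where 14.1% of all genes did so. Catalase (Cat) averaged 181 ± 7.02 CPM in DNMT3L brains and 264 ± 14.2 CPM in control brains. Sod1 averaged 498 ± 78.5 CPM in DNMT3L brains and 745 ± 265 CPM in control brains, Sod3 97.6 ± 14.0 CPM in DNMT3L brains and 160.0 ± 39.9 CPM in control brains, and Jafrac1 644 ± 179 CPM in DNMT3L brains and 832 ± 264 CPM in control brains. The peroxiredoxin gene Prx2540-1 was below 1 CPM on average in both groups, at 0.0851 ± 0.105 CPM in DNMT3L brains and 0.873 ± 0.137 CPM in control brains. Its groups did not overlap, with a log2 fold change of −3.24 ± 0.78 (SE, DESeq2 adjusted p = 0.044), but it rested on few reads. Cytochrome P450 genes, which oxidise substrates ahead of conjugation, were negative for 38 of 48 tested with a median of −0.46. Over all genes tested, 52.3% were negative. In 12 of the 48 every DNMT3L library lay below every control library, where 14.1% of all genes did so. In 1 every DNMT3L library lay above, where 14.0% of all genes did so. Cyp6a17 averaged 31.8 ± 11.7 CPM in DNMT3L brains and 97.8 ± 38.2 CPM in control brains, Cyp4e2 6.96 ± 0.866 CPM in DNMT3L brains and 13.0 ± 1.16 CPM in control brains, and Cyp6d2 0.663 ± 0.304 CPM in DNMT3L brains and 2.19 ± 0.485 CPM in control brains. Cyp4g15, the most abundant, averaged 132 ± 15.0 CPM in DNMT3L brains and 124 ± 12.3 CPM in control brains. UDP-glycosyltransferase genes, which add sugars to substrates, were negative for 5 of 7 tested, where 52.3% of all genes were negative. In 3 of the 7 the groups did not overlap with DNMT3L lower, where 14.1% of all genes did so. In 1, Ugt86Dd, they did not overlap with DNMT3L higher, where 14.0% did so. Ugt86Da averaged 19.6 ± 6.58 CPM in DNMT3L brains and 31.2 ± 4.44 CPM in control brains, and Ugt35a 2.15 ± 1.34 CPM in DNMT3L brains and 7.42 ± 2.88 CPM in control brains. Ugt86Di averaged 18.3 ± 5.36 CPM in DNMT3L brains and 31.2 ± 1.37 CPM in control brains, and Ugt86Dd 1.97 ± 0.933 CPM in DNMT3L brains and 0.402 ± 0.152 CPM in control brains. Whether these families differed from the glutathione transferases was not tested.

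Marker genes of cell types were summed beside these levels, and edgeR called none of them, where it called 0% of all genes. DESeq2 called Lsp1gamma (fat body), NimC1 (hemocyte), verm and serp (trachea) and Lcp2 (cuticle) lower and Fbp2 (fat body) higher. Over all genes it called 1.96% lower and 1.12% higher. Neuron markers summed to 749 to 1354 CPM in DNMT3L libraries and 164 to 627 CPM in control libraries, with 8 of 8 positive. Neuroblast markers, 0 of 5 negative, summed to 465 to 549.7 CPM in DNMT3L libraries and 249.8 to 458 CPM in control libraries. Glia markers summed to 1198 to 1819 CPM in DNMT3L libraries and 1360 to 1856 CPM in control libraries, with 2 of 8 negative. Neuron and neuroblast sums did not overlap and glia sums did. Fat body markers, 5 of 8 negative, summed to 877 to 1106 CPM in DNMT3L libraries and 1300 to 2183 CPM in control libraries. They did not move together: Lsp1gamma averaged 176 ± 32.5 CPM in DNMT3L brains and 517 ± 155 CPM in control brains, but Fbp2 averaged 20.4 ± 3.75 CPM in DNMT3L brains and 0.931 ± 0.527 CPM in control brains, and apolpp was higher without overlap, with a log2 fold change of 0.82 (SD, n = 3 each). Hemocyte markers, 6 of 6 negative, summed to 83.3 to 104 CPM in DNMT3L libraries and 108 to 278 CPM in control libraries. Tracheal markers, 4 of 5 negative, summed to 277 to 425 CPM in DNMT3L libraries and 547 to 656 CPM in control libraries.

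Muscle markers, 7 of 9 negative, summed to 144 to 360 CPM in DNMT3L libraries and 417 to 834 CPM in control libraries. Cuticle markers, 7 of 8 negative, summed to 152 to 348 CPM in DNMT3L libraries and 368 to 1104 CPM in control libraries. Ring gland markers, 6 of 6 negative, summed to 405 to 854 CPM in DNMT3L libraries and 830 to 1061 CPM in control libraries, with overlap. Markers of gut and Malpighian tubule, where glutathione transferases are abundant in flies, were low. Gut markers, 3 of 5 tested negative, summed to 14.4 to 26.4 CPM in DNMT3L libraries and 26.1 to 30.5 CPM in control libraries, with overlap. alphaTry had no read in any DNMT3L library and averaged 1.44 ± 1.21 CPM in control brains (SD, n = 3). gammaTry had none in any control library and averaged only 0.0354 CPM in DNMT3L brains. betaTry (log2 fold change −2.76, below 1 CPM on average in both groups) and Jon65Aiv (−0.99) were lower without overlap. The 2 positive genes, Jon99Ciii and Jon99Cii, overlapped, as did Jon65Aiii. Malpighian tubule markers, 2 of 3 tested negative, summed to 30.4 to 44.9 CPM in DNMT3L libraries and 32.2 to 47.7 CPM in control libraries. Salivary gland markers, 0 of 6 negative, summed to 25.5 to 198 CPM in DNMT3L libraries and 13.0 to 56.4 CPM in control libraries, with overlap. The part of any of these cell types in the transferase levels was not tested. The 8 neuron markers had exonic sizes from 3684 (Gad1) to 13350 bases (brp). All 8 were lowest in control 1, and 7 of 8 were highest in DNMT3L 1. The 2 positive muscle markers, sls and bt, had 58996 and 28019 bases, while the negative hemocyte marker Hml had 11756 bases. The part of exonic size or of single libraries in the marker sums was not tested. Fewer cells of a type and less RNA per cell cannot be told apart in bulk tissue.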

How the data were processed

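The tools listed are HISAT2 2.0.1, cutadapt 1.9.1 and HTSeq 0.6.1, per the submitters' processing notes, which also list the builds BDGP6 and dm6. They state neither the strand setting nor the annotation release. The deposited table holds raw read counts per gene for 6 libraries, and the deposited FPKM values follow from the count, the exonic size and the total count (100% of values within rounding, a tolerance of 0.006). The exonic size is another column of the table.

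Counts were tested with edgeR 4.0.16 (filterByExpr, 9495 genes kept; TMM; glmQLFit and glmQLFTest, two-sided) in R 4.3.3, with p-values adjusted by Benjamini-Hochberg across every tested gene, a threshold of 0.05 and standard errors implied by the F statistic. The step was first tested on simulated data. Alternatives used DESeq2 1.42.0, limma 3.58.1 on log2(FPKM + pseudocount), other scaling and filters, a replicate block, left-out libraries and removal of a loess trend (span 0.5) on exonic size. Libraries of one group differed beyond sampling noise. The labels do not say whether replicate numbers pair the libraries. Correlations between same-numbered libraries, given below, showed no pairing, but 3 libraries per group cannot settle it. The members and gene lists were chosen with earlier results of these data known. The P450 and UDP-glycosyltransferase lists were matched by symbol pattern, narrowed after a cyclophilin and a glycoprotein glucosyltransferase gene had matched. Per-library values are given for members averaging at least 5 CPM in either group, or at least 1 CPM without overlap. From lists of more than 8 genes the text names the 2 most abundant and the 3 with the lowest p. No sequence table was used here, so no sequence is printed.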

Additional observations from a re-analysis of the deposited data

How the results depend on the processing

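Over all genes, 0 were called by edgeR and 2 with DESeq2 size factors (RLE), 6 without the low-count filter, 16 without both libraries numbered 1 and 13 with the length trend removed. DESeq2 called 292, and limma 12 on log2(FPKM + 1), 10 with a pseudocount of 0.1 and 12 without a filter. With the replicate block, which called 0 where 458 genes had an unadjusted p under 0.05, and in each of the 6 fits that leave out 1 library, 0 were called. Over the tested genes, deviations from the group means correlated at −0.66, −0.54 and −0.18 between same-numbered control and DNMT3L libraries. Between differently numbered ones these correlations ran from −0.34 to 0.69. Members called numbered 4 by DESeq2, 2 of them GstD1 and GstE1, on which the family was chosen, and 0 in every other fit. DESeq2 called 2 of 9 peroxide and superoxide genes and 4 of 48 P450 genes lower, where it called 1.96% of all genes lower. It called 1 of 7 UDP-glycosyltransferase genes, Ugt86Dd, higher, where it called 1.12% of all genes higher. In each of these lists edgeR called 0. Between 25 and 29 members were negative in every fit. The members' median ran from −1.31 without DNMT3L 2 to −0.59 without control 1 when 1 library was left out. The 26 negative members kept their sign in each of the 6 fits. The signs of small values turned. GstE2 was at 0.0032 without both libraries numbered 1 and 0.12 with the length trend removed, and GstE12 at 0.061 without both libraries. GstT3 was at −0.0032 with the replicate block, −0.076 without both libraries and between −0.11 (without DNMT3L 1) and 0.057 (without DNMT3L 3) with 1 library left out, with −0.039 without control 2. Their causes were not tested. In limma on log2(FPKM + 1), which differs in scaling, filter and model at once, the median of all genes was 0.13 and that of the members −0.70. Few reads limit GstD4 and the members that were not tested.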
